A study of Mus musculus with 24 samples.

Results

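Annexins and galectins were examined in the frontal cortex of GFAP-IL6 mice, which carry an Il6 transgene driven in astrocytes by the Gfap promoter. The 10 genes were taken by symbol from the 33000 genes of the count table: 6 annexins (Anxa1, Anxa2, Anxa3, Anxa4, Anxa5 and Anxa6) and 4 galectins (Lgals1, Lgals3, Lgals8 and Lgals9), out of 22 annexin and galectin symbols listed there. Frontal cortex RNA came from 3 WT and 3 homozygous GFAP-IL6 mice, all C57BL/6 and 3 months old. Each mouse gave 4 3'Pool-seq libraries, tagmented from 2 ng or 1 ng of cDNA in sets A and B, and the labels do not state how A and B differ. These libraries are repeats of 1 RNA, so the mouse was the replicate (n = 3 per genotype), and the counts of its 4 libraries were summed unless a set is named.

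Annexins bind negatively charged phospholipids, phosphatidylserine above all, in the presence of calcium, and link membranes to each other, to the cytoskeleton and to S100 proteins. Galectins bind beta-galactosides on glycoproteins and glycolipids, cross-link surface receptors, and mark damaged endosomes and lysosomes when lumenal glycans become exposed to the cytosol. Both families leave the cell without a signal peptide. In the brain they are known from microglia, reactive astrocytes, vessels and meninges, where several members rise in inflammation.

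Lgals9 was the gene of this group that differed most between the genotypes, and promoters of the 2 galectins with a pair of carbohydrate-binding domains, Lgals9 and Lgals8, are shown because only the first of them was called. Each window runs from 250 bases before to 50 bases after the RefSeq gene start on GRCm38.p6, 5' to 3' on the strand of the gene. The Lgals9 window is chr11:78984875-78985174 (minus strand) and that of Lgals8 is chr13:12461689-12461988 (minus strand). In the GENCODE annotation Lgals8 spans chr13:12439415-12464944, so its window lies within the gene. The Lgals9 window reaches past the 5' end of its gene (78984946), so the 2 windows are not at like positions. Capitals mark matches to the core of an interferon-stimulated response element, GAAA followed by any 2 bases and GAAA again, read on both strands.
Lgals9: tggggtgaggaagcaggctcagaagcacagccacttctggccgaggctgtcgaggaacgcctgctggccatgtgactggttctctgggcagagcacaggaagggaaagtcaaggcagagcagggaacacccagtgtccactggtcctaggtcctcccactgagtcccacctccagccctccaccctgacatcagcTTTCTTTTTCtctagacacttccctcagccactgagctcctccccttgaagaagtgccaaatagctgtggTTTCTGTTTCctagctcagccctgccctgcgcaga
Lgals8: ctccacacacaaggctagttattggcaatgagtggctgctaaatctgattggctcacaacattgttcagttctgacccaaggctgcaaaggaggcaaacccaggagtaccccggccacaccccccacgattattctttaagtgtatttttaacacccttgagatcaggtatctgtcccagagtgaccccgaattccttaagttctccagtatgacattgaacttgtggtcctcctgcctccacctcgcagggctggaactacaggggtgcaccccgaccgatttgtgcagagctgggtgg
The Lgals9 window held 2 matches, both on the opposite strand and not overlapping, with first bases 55 bases before and 15 bases after the start. The other motif searched, TTCNNNGAA for STAT factors, which act downstream of IL-6 receptors, had no match in either. Promoters were on hand for 7 of the 10 genes (8 promoters, since Anxa4 has 2), and of these 8 only that of Lgals9 held the interferon motif and 0 held the STAT motif. Among 32851 mouse promoters of the same length, 3.44% held the interferon motif and 8.3% the STAT motif. A match describes the letters of the window only.

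Between 1524165 and 12256374 reads were counted per library, and between 7852743 and 37582644 per mouse. The mouse with the fewest, WT 3, stood apart from the other 5 on the first principal component (38.2% of the variance). In CPM, which are counts relative to the TMM-scaled total, it held 4040 CPM of Ttr, the transthyretin gene of choroid plexus, where the other mice held 74.6 to 743 CPM, so the main results are also given without it. Neuronal markers, which mark brain tissue but not cortex in particular, summed to 5770 to 6860 CPM per mouse (7 genes). Il6 reads matched the labels, with 5, 3 and 0 counts in WT 1 to 3 and 30, 33 and 163 counts in GFAP-IL6 1 to 3. Gfap, the intermediate filament gene of astrocytes, rose from 20.0 ± 3.78 to 110 ± 33.4 CPM (SD, n = 3).

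Lgals9 was higher in GFAP-IL6 cortex, and it was the only one of the 10 genes called. Galectin-9 is a ligand of the checkpoint receptor TIM-3 and an interferon-inducible product of myeloid and endothelial cells. The gene lies at chr11:78962974-78984946 on the minus strand (mm10). WT 1, 2 and 3 held 11.3, 11.9 and 11.3 CPM, and GFAP-IL6 1, 2 and 3 held 20.1, 25.4 and 31.1 CPM. The WT mice were nearly equal, and the lowest GFAP-IL6 mouse was well above the highest WT mouse. The mean went from 11.5 ± 0.361 to 25.5 ± 5.45 CPM (SD, n = 3), a log2 fold change of 1.17 (SE 0.15, 95% interval 0.85 to 1.49, edgeR quasi-likelihood test, adjusted p = 0.00034). As a fold this was 2.25 (95% interval 1.8 to 2.81). Of all 14621 genes tested, 1.8% were called at an adjusted p under 0.05 and 1.23% were DEGs, which also need an absolute log2 fold change above 1. Lgals9 was the only DEG of the group, and without WT 3 its log2 fold change was 1.17 (adjusted p = 0.000682). Without GFAP-IL6 3 it was 0.99 (adjusted p = 0.00229), which is under the DEG limit.

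Microglial markers moved with Lgals9. Of 10 microglial genes 9 had a log2 fold change above 0 and 8 were called higher, 7 when WT 3 was left out. Among those called were C1qb (123 ± 5.31 to 337 ± 50.8 CPM, SD, n = 3) and Aif1 (37.8 ± 4.22 to 88.4 ± 2.87 CPM). The summed level of the 10 genes was 609 to 672 CPM in WT and 1130 to 1470 CPM in GFAP-IL6 mice. P2ry12, a receptor of homeostatic microglia, was 55.8 ± 2.56 and 55.1 ± 3.95 CPM. More cells of a type and more RNA per cell cannot be told apart in bulk tissue, and the part of microglia in the Lgals9 difference was not tested. Markers of border macrophages and monocytes had overlapping ranges in the genotypes (9 genes summed, 11.9 to 15.5 CPM in WT and 10.7 to 15.8 CPM in GFAP-IL6). Of the 8 tested, 0 were called by edgeR or DESeq2, and 5 had a log2 fold change above 0. The 2 with an unadjusted p under 0.05 were lower in GFAP-IL6 mice, Cd209f (log2 fold change -2.32) and Lyve1 (-1.16). Ly6g, the defining surface gene of neutrophils, had no count in any library, but other genes of its list did. The 12 neutrophil and lymphocyte genes summed to 0.656 to 3.93 CPM in WT and 2.88 to 7.13 CPM in GFAP-IL6 mice. The 2 that were tested, S100a8 and S100a9, had log2 fold changes of 0.60 and 0.55 and were not called (edgeR adjusted p = 0.834 and 0.91).

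**Figure D1:**
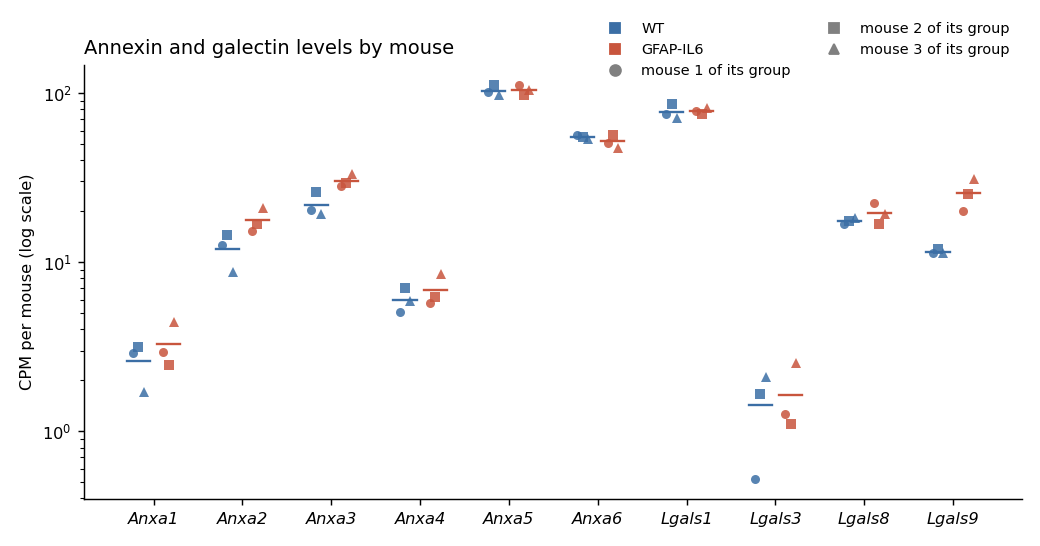
CPM of each of the 10 genes in each mouse on a log axis, with WT in blue, GFAP-IL6 in red, 1 symbol per mouse and a line at the mean of 3 mice. Lgals9 (11.3 to 11.9 CPM in WT, 20.1 to 31.1 CPM in GFAP-IL6), Anxa2 and Anxa3 are the genes whose groups do not overlap.

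Anxa2 and Anxa3 were the other genes whose groups did not overlap, and neither passed the test over all genes. Anxa3 encodes an annexin that is abundant in microglia and myeloid cells and lies at chr5:96793339-96845966 on the plus strand (mm10). It measured 20.4, 26.0 and 19.2 CPM in WT and 28.0, 29.4 and 33.0 CPM in GFAP-IL6 mice, the gap between the groups being smaller than the spread among WT mice. The log2 fold change was 0.46 (SE 0.128, 95% interval 0.19 to 0.73, edgeR adjusted p = 0.114). Anxa2 encodes the partner of S100a10 in a surface complex that binds tissue plasminogen activator and plasminogen, and lies at chr9:69453620-69491795 on the plus strand (mm10). It measured 12.6, 14.4 and 8.79 CPM in WT and 15.3, 16.8 and 21.0 CPM in GFAP-IL6 mice, with the highest WT mouse close under the lowest GFAP-IL6 mouse. For Anxa2 the difference was 0.55 on the log2 scale (SE 0.168, 95% interval 0.19 to 0.91, edgeR adjusted p = 0.18). The WT mouse with the least Anxa2 and Anxa3 was WT 3, and without it the log2 fold changes were 0.41 for Anxa2 (edgeR adjusted p = 0.324) and 0.39 for Anxa3 (edgeR adjusted p = 0.237). Both genes were called by limma-voom over the 24 libraries (adjusted p = 0.0123 for Anxa2 and 0.00448 for Anxa3) and with no filter on low counts (edgeR adjusted p = 0.00994 and 0.0125). The limma-voom fit takes libraries as units, with 1 correlation (0.276) for those of a mouse, so repeats of the same RNA add to its weight. It called 537 of 12146 genes, and the fit with no filter called 462 of 20629. Higher values in each GFAP-IL6 mouse than in any WT mouse were found for 8.43% of all genes tested, and lower values in each of them for 5.93%. An exact permutation test of 3 mice against 3 (two-sided) gave p = 0.1 for Lgals9, Anxa2 and Anxa3, the smallest it can give.

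The other 4 annexins had groups that overlapped. Anxa5, the protein used to stain phosphatidylserine on dying cells, measured 101, 111 and 97.2 CPM in WT and 112, 98.0 and 104 CPM in GFAP-IL6 mice. Its log2 fold change of 0.02 had a 95% interval of -0.17 to 0.21 (edgeR adjusted p = 0.981). Anxa6, an annexin of endosomes and the plasma membrane with a doubled core, was the only one of the 10 genes with a value below 0, at -0.09 (95% interval -0.29 to 0.11, edgeR adjusted p = 0.88). Anxa1, the glucocorticoid-induced ligand of formyl peptide receptors, was a low gene, at 2.91, 3.16 and 1.71 CPM in WT and 2.95, 2.45 and 4.44 CPM in GFAP-IL6 mice. At 13 to 171 counts per mouse its interval was wide (log2 fold change 0.32, -0.32 to 0.95, edgeR adjusted p = 0.86). Anxa4, which is best known from epithelia, measured 5.05 to 7.04 CPM in WT and 5.70 to 8.56 CPM in GFAP-IL6 mice (log2 fold change 0.22, 95% interval -0.22 to 0.66). Its exons share 75 bases with Gm44036, a noncoding gene on the opposite strand that is not among the counted genes. The strand setting of the counting, on which this overlap bears, is not known here.

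The other 3 galectins were not called either. Lgals1, a galectin with a single carbohydrate-binding domain that pairs with itself, measured 75.5, 86.6 and 70.7 CPM in WT and 78.1, 75.2 and 81.5 CPM in GFAP-IL6 mice. Its log2 fold change of 0.01 had a 95% interval of -0.19 to 0.21 (edgeR adjusted p = 0.996), and this interval does not meet that of Lgals9. Lgals8, a sensor of damaged endosomes, measured 16.7, 17.5 and 18.2 CPM in WT and 22.5, 16.7 and 19.2 CPM in GFAP-IL6 mice (log2 fold change 0.15, 95% interval -0.13 to 0.43, edgeR adjusted p = 0.842). Its exons share 155 bases with Heatr1 on the opposite strand, a gene with 398 counts over the 24 libraries, and the strand setting of the counting is not given in the sources used here. Lgals3, a marker of activated phagocytes, had only 10 to 98 counts per mouse. It measured 0.52, 1.66 and 2.10 CPM in WT and 1.27, 1.10 and 2.54 CPM in GFAP-IL6 mice, and its interval of -0.64 to 1.4 (log2 fold change 0.38) includes both no difference and a value above that of Lgals9.

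**Figure D2:**
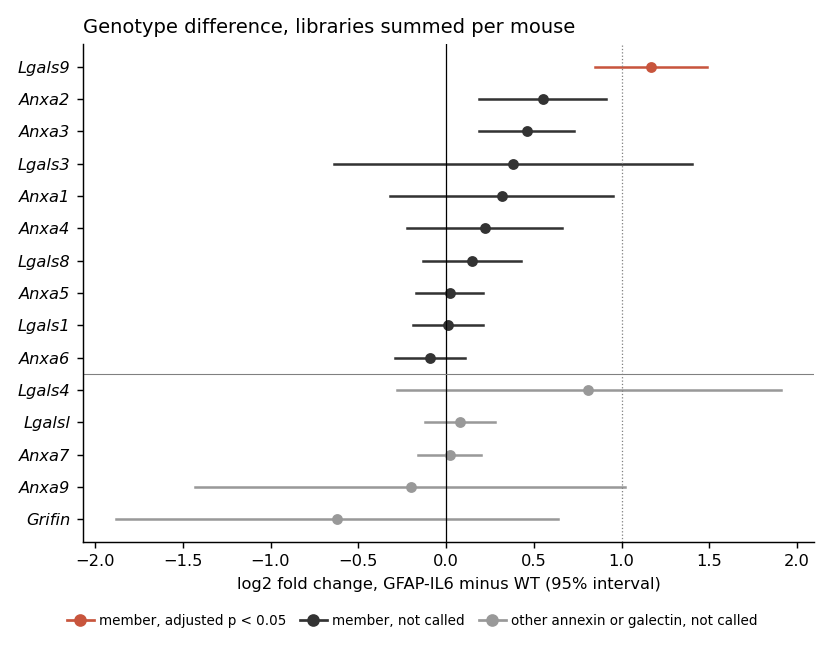
Log2 fold change of GFAP-IL6 minus WT with its 95% interval from the edgeR fit, for the 10 genes (above the line) and the 5 other annexins and galectins tested (below it), with a dotted line at 1. Lgals9 (1.17, 0.85 to 1.49) is the only gene called, while the intervals of Anxa2 and Anxa3 also lie above 0 before adjustment.

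Of the 10 genes, 9 had a log2 fold change above 0, against 48.1% of all genes tested. With limma-voom it was 6 of the 9 genes tested. The edgeR median was 0.27, against -0.0069 over all genes. Without GFAP-IL6 3 the count fell to 5 of 10 genes, with a median of 0.01. Without WT 1 it was 7 genes with a median of 0.1, and without WT 3 it was 7 genes with a median of 0.2. Several of the 9 had intervals that include 0. Summed levels were 200 ± 14.9 CPM in WT and 214 ± 4.48 CPM in GFAP-IL6 mice for the 6 annexins, and 108 ± 8.36 and 125 ± 8.32 CPM for the 4 galectins (SD, n = 3).

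The make-up of the galectin pool differed between the genotypes in Lgals9. Lgals9 took 10.9%, 10.1% and 11% of the counts of the 4 galectins in WT and 16.5%, 21.4% and 23.1% in GFAP-IL6 mice. Lgals1 took 71.8% ± 2.37 in WT and 62.7% ± 1.81 in GFAP-IL6 mice (SD, n = 3), so it held most of the pool in both. In the annexin pool Anxa5 held 51.4% ± 0.63 and 48.8% ± 2.89, and Anxa3 held 10.9% ± 0.999 and 14.1% ± 1.06. Shares of a pool add up to a whole, so a rise of 1 gene lowers the others, and no test was run on them.

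Per kb of gene length, mean levels in WT mice fell in the order Lgals1 (97 CPM per kb), Anxa5 (59.4), Anxa6 (22.1), Anxa3 (8.31), Anxa2 (8.26), Lgals9 (7.13), Lgals8 (5.71), Anxa4 (2.85), Anxa1 (1.55) and Lgals3 (0.898 CPM per kb). The ranges of Anxa3 and Anxa2, of Anxa2 and Lgals9, and of Anxa1 and Lgals3 overlapped over the 3 WT mice, and those of the other neighbours did not. In GFAP-IL6 mice Lgals9 (15.8 CPM per kb) stood before Anxa2 (12.2) and Anxa3 (11.5), and the other genes kept their places. Its range overlapped those of Anxa6 (20.8), Anxa2 and, narrowly, Anxa3. A 3' library reads the end of each transcript, so division by length favours short genes, and in CPM without it Anxa5 came before Lgals1.

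The rise of Lgals9 was present in each of the 4 library sets fitted alone. With 2 ng of cDNA in set A, WT libraries held 8.2 to 14.5 CPM and GFAP-IL6 libraries 22.5 to 31.6 CPM (log2 fold change 1.27 ± 0.226 SE, edgeR adjusted p = 0.00135). With 1 ng in set A the ranges were 6.42 to 10 and 20.9 to 30.8 CPM (1.63 ± 0.222, edgeR adjusted p = 4.4e-05). With 2 ng in set B they were 12 to 15.4 and 23.7 to 30.9 CPM (1.0 ± 0.195, edgeR adjusted p = 0.00445). With 1 ng in set B they were 11.8 to 13.6 and 15.3 to 31.3 CPM (0.97 ± 0.222, edgeR adjusted p = 0.0348), the set in which the lowest GFAP-IL6 library came closest to WT. That last call ended when any mouse but GFAP-IL6 1 was left out (down to 0.67, edgeR adjusted p = 0.611, without GFAP-IL6 3). Without GFAP-IL6 3 the calls with 2 ng ended too (1.06, edgeR adjusted p = 0.0785, in set A and 0.88, edgeR adjusted p = 0.146, in set B), and that of 2 ng B also without WT 2 (0.88, edgeR adjusted p = 0.0859). Over all genes, 1.03%, 1.1%, 1.08% and 1.08% were called in these 4 sets. The sets repeat the same 6 RNAs and are not independent of each other.

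The other 9 genes were not called in any set. Anxa3 was higher in all GFAP-IL6 libraries than in any WT library in 3 of the 4 sets (log2 fold change 0.45 to 0.54 in these sets, 0.35 in the other), Anxa2 in 2 sets (0.58 and 0.61) and Lgals8 in 1 set (0.20). Anxa6 went the other way in 1 set, 2 ng A, with 59.2 to 64.8 CPM in WT and 48.8 to 57.4 CPM in GFAP-IL6 libraries (log2 fold change -0.24). Of all genes tested, 6.92% (2 ng A), 6.64% (1 ng A), 6.93% (2 ng B) and 6.92% (1 ng B) were higher in all GFAP-IL6 libraries of a set, and 5.79% were lower in 2 ng A. The lowest adjusted p among them was 0.141, for Anxa3 in a single set. Lgals3 had enough counts for a test in 1 set and Anxa1 in 3.

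**Figure D3:**
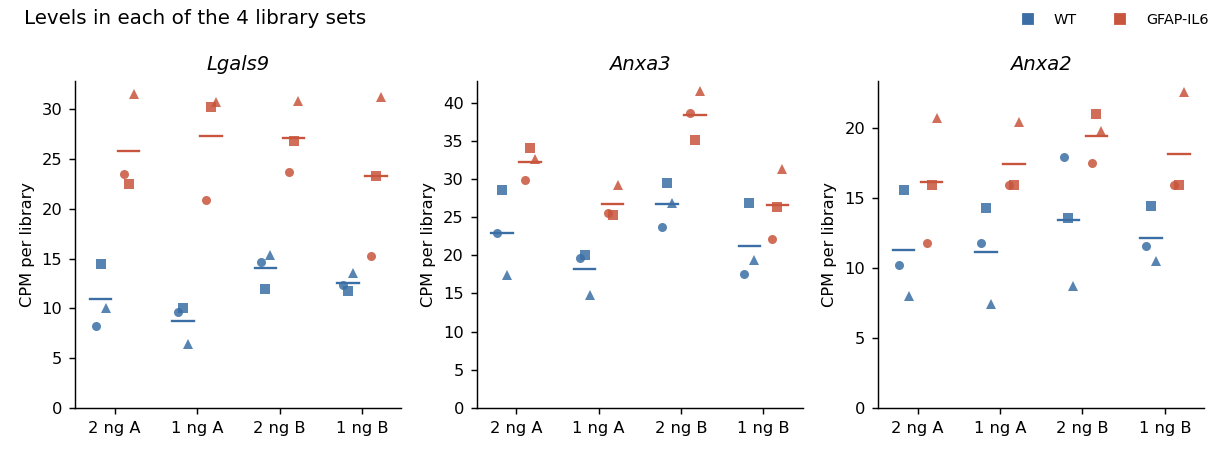
CPM of Lgals9, Anxa3 and Anxa2 in each library, by set (2 ng A, 1 ng A, 2 ng B, 1 ng B), with WT in blue, GFAP-IL6 in red, 1 symbol per mouse and a line at the mean of 3 libraries. Lgals9 groups are apart in all 4 sets, those of Anxa3 in 3 and those of Anxa2 in 2.

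The genotype effect on Lgals9 was 0.48 larger on the log2 scale in set A than in set B (95% interval -0.08 to 1.05, edgeR unadjusted p = 0.0876, and 0.0252 with the mouse as a block), and it did not pass the adjustment over all genes in either fit. The WT libraries of set B read 11.8 to 15.4 CPM, and those of set A 6.42 to 14.5 CPM. No gene of the 14167 tested was called for this difference by edgeR or DESeq2 (239 genes by edgeR and 188 by DESeq2 had an unadjusted p under 0.05), and 0 of 13961 were called for the difference between 2 ng and 1 ng (93 and 46 genes). The interval for Lgals9 between 2 ng and 1 ng was -0.65 to 0.4 around -0.12.

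Some of the 10 genes differed between libraries of the same mouse, in mice of both genotypes. Anxa3 was higher with 2 ng than with 1 ng in 6 of 6 mice (30.0 ± 6.26 against 23.2 ± 4.8 CPM). Here and below the SD is over the 6 mice of both genotypes. The log2 difference was 0.33 (edgeR adjusted p = 0.0229, and 1.38e-05 with the mouse as a block), beside a genotype difference of 0.46 on the same scale. Lgals1 was lower with 2 ng in 6 of 6 mice (73.1 ± 6.7 against 81.7 ± 5.57 CPM), with an edgeR adjusted p of 0.0936 and of 0.000369 once the mouse was a block. Over all genes 12.8% were called between 2 ng and 1 ng, so a call in 1 of 10 genes is close to the background. Anxa5 was higher in set A than in set B in 6 of 6 mice (115 ± 8.38 against 95.6 ± 6.77 CPM). Its log2 difference was 0.25 (edgeR adjusted p = 0.0185, and 1.18e-06 with the mouse as a block). Lgals8 was higher in set A in 6 of 6 mice (20.9 ± 2.47 against 16.7 ± 1.83 CPM), with an edgeR adjusted p of 0.0652, and of 0.0106 with the mouse as a block. Of all genes 7.47% were called between the sets. With the mouse as a block, 4462 of 13389 genes were called between 2 ng and 1 ng and 3169 of 13581 between the sets. Lgals9 was called in neither contrast (0.09 for 2 ng minus 1 ng and -0.1 for set A minus set B, on the log2 scale).

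**Figure D4:**
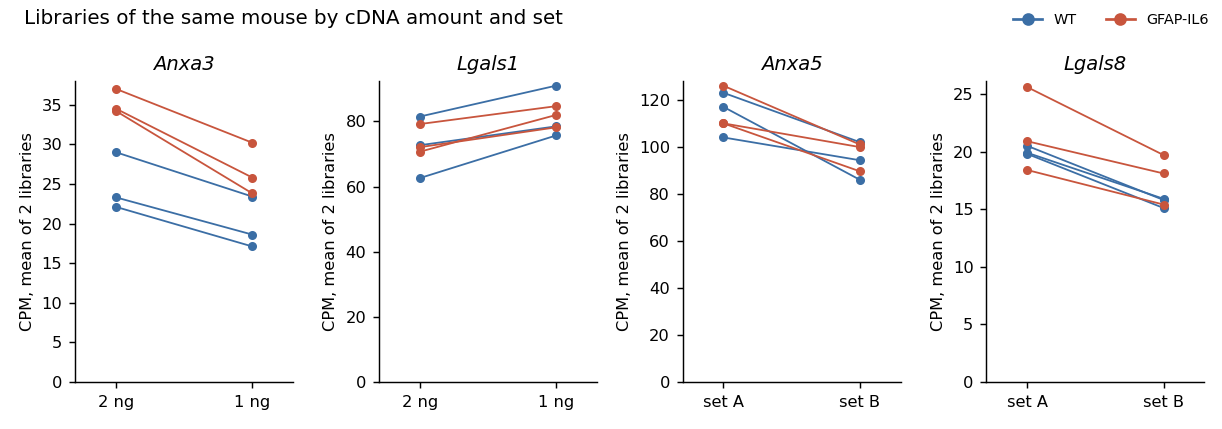
Mean CPM of 2 libraries of the same mouse, joined by a line, for Anxa3 and Lgals1 with 2 ng and 1 ng of cDNA and for Anxa5 and Lgals8 in sets A and B, with WT in blue and GFAP-IL6 in red. All 6 lines of a panel go the same way, down for Anxa3, Anxa5 and Lgals8 and up for Lgals1.

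The rest of both families added no call. Of 13 further annexin and galectin genes, 12 were in the table and 5 had enough counts to be tested, with 0 called by edgeR or DESeq2 and 0 at an unadjusted p under 0.05. Anxa7, an annexin of secretory granules, measured 79.3 ± 2.26 and 80.5 ± 5.13 CPM, and Lgalsl, which encodes a galectin-like protein, 63.7 ± 2.7 and 67.5 ± 5.65 CPM (SD, n = 3). Anxa9, Lgals4 and the lens gene Grifin were under 1 CPM on average in both genotypes. Anxa8, Anxa10, Anxa11, Anxa13, Lgals2, Lgals7 and Lgals12 were not tested and had at most 7 counts in any library.

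None of the tested partners of the annexins was called. Of 11 genes for S100 partners and the plasminogen system 8 were tested, 0 were called by edgeR or DESeq2, and 1 (Ahnak) had an unadjusted p under 0.05. S100a10, the partner of Anxa2, measured 110 ± 7.21 CPM in WT and 108 ± 5.34 CPM in GFAP-IL6 mice (log2 fold change -0.02, 95% interval -0.2 to 0.16). Ahnak, a large scaffold bound by the Anxa2 complex, measured 10.5, 15.1 and 8.79 CPM in WT and 15, 19 and 18.7 CPM in GFAP-IL6 mice, with WT 2 just above GFAP-IL6 1 (log2 fold change 0.60, edgeR adjusted p = 0.137). The formyl peptide receptors, through which Anxa1 acts, were too low to test. Fpr1 had 0, 1 and 0 counts in WT and 1, 3 and 10 counts in GFAP-IL6 mice. Fpr2 leaned the other way, with 5, 0 and 3 counts in WT and 0, 0 and 3 counts in GFAP-IL6 mice. Fpr3, Fpr-rs3 and Fpr-rs4 had no count. These are raw counts, and GFAP-IL6 3 had the most reads of the 6 mice (37582644).

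Of 15 genes whose products are reported to bind galectins or to build their sugar ligands, 14 were tested. Of these, 11 had a log2 fold change above 0 and 3 were called higher. All 3 were DEGs, as were 1.23% of all genes tested, and 3 were called by DESeq2 and 3 without WT 3. Lgals3bp, the secreted galectin-3 binding protein, measured 18.7, 16.8 and 16.9 CPM in WT and 30.7, 37.4 and 42.6 CPM in GFAP-IL6 mice (log2 fold change 1.09, SE 0.127, edgeR adjusted p = 0.000147). Ptprc, the leukocyte surface phosphatase CD45, rose from 1.88 ± 0.248 to 6.15 ± 1.87 CPM (log2 fold change 1.78, edgeR adjusted p = 0.00144). Trem2, a lipid receptor of microglia, rose from 31.9 ± 2.66 to 72.5 ± 11 CPM (log2 fold change 1.18, edgeR adjusted p = 2.63e-05). Ptprc and Trem2 are also genes of microglia, whose markers rose as given above. Havcr2, which encodes TIM-3, the receptor of galectin-9, measured 2.75 ± 0.943 and 3.45 ± 1.1 CPM (log2 fold change 0.45, 95% interval -0.21 to 1.1). The enzymes Mgat5, St6gal1 and B4galt1, which shape the sugars that galectins bind, were not called.

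Of 15 genes for other proteins that bind phosphatidylserine, which Anxa5 also binds, or for their receptors, 12 were tested. A log2 fold change above 0 was found for 9 of them, and 2 were called higher. Pros1, the protein S gene and a bridging ligand of the TAM receptors, went from 7.23 ± 0.386 to 15.6 ± 1.69 CPM (log2 fold change 1.10, edgeR adjusted p = 0.00041). Itgb5, an integrin subunit that takes part in uptake of dying cells, went from 7.91 ± 0.139 to 13.3 ± 0.849 CPM (log2 fold change 0.74, edgeR adjusted p = 0.00897). The TAM receptors Axl, Mertk and Tyro3 and the bridging proteins Gas6 and Mfge8 were not called. The galectin and phosphatidylserine lists share Mertk, and 1.8% of all genes tested were called in this comparison.

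**Figure D5:**
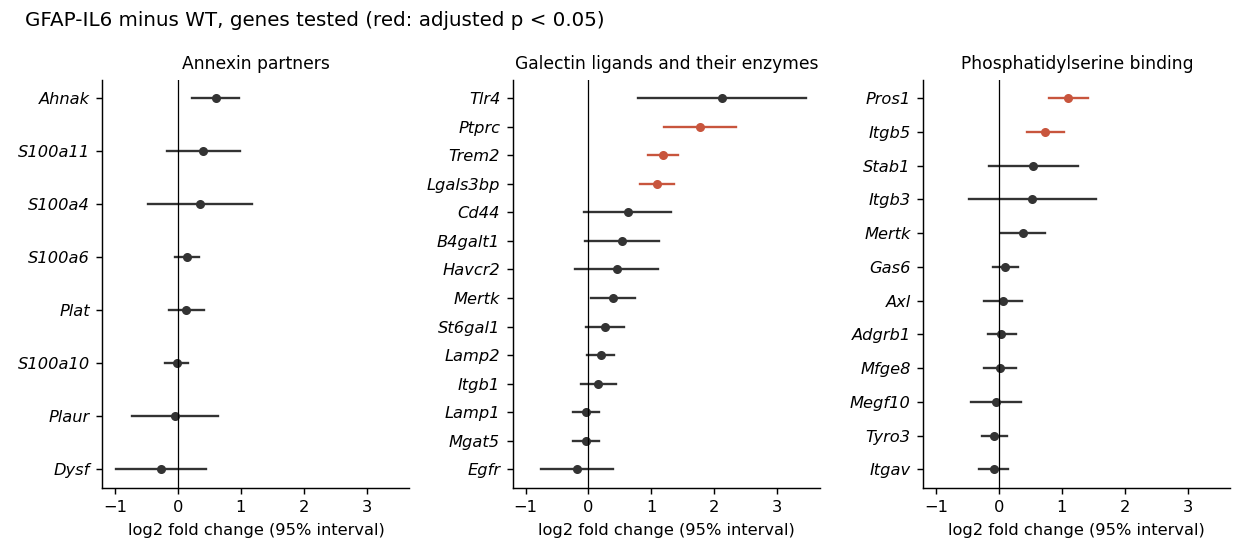
Log2 fold change of GFAP-IL6 minus WT with its 95% interval for the tested genes of the annexin partner, galectin ligand and phosphatidylserine lists, with genes called at an adjusted p under 0.05 in red. No annexin partner is red, 3 galectin ligands are (Ptprc 1.78, Trem2 1.18, Lgals3bp 1.09) and so are 2 phosphatidylserine genes (Pros1 1.10, Itgb5 0.74).

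Among the remaining marker lists, astrocytes had 1 of 9 genes called (Gfap), endothelium 2 of 8 (Flt1 and Ly6c1) and mural cells 1 of 7 (Rgs5), all higher in GFAP-IL6 mice. DESeq2 called 2 astrocyte genes (Gfap and Aqp4) and 1 endothelial gene (Flt1). None of the tested markers of meningeal fibroblasts (7), choroid plexus (6), neurons (7), oligodendrocytes (6), erythrocytes (5) or neutrophils and lymphocytes (2) was called by edgeR or DESeq2, and 1 choroid plexus gene and 1 erythrocyte gene had an unadjusted p under 0.05. Without WT 3 the mural gene was not called. Summed endothelial levels were 123 to 129 CPM in WT and 144 to 232 CPM in GFAP-IL6 mice. Ly6c1 alone held 62.8 to 75.2 CPM of this in WT and 79.5 to 146 CPM in GFAP-IL6 mice. Astrocyte markers summed to 3380 to 3470 CPM in WT and 3730 to 3900 CPM in GFAP-IL6 mice. Mural markers summed to 74.8 to 105 CPM in WT and 114 to 133 CPM in GFAP-IL6 mice. All these sums were higher together with Lgals9, and the part of these cell types was not tested.

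The genes with values most like those of Lgals9 over the 6 mice were Tmem176b, Lgals3bp and Aspg, with mean absolute differences of 0.0498, 0.0662 and 0.0664 in centred log2 CPM. For Anxa3 they were Il16, Pbxip1 and Siglech (0.0466, 0.0474 and 0.0524), among 14620 genes in each case. Such a ranking over 6 mice of 2 genotypes follows the genotype difference and the level of each mouse together.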

How the data were processed

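Members and gene lists were chosen with earlier results of these data known. The authors trimmed polyA, aligned reads with STAR 2.4 to mm10 and counted those unique to GENCODE vM6 genes with featureCounts; the deposited values are raw counts for 33000 genes, not normalized. The labels list hg19 as the build, but the genes are mouse genes. Positions were read from GENCODE vM21 on mm10 and promoters from RefSeq (GRCm38.p6), chromosome 18 left out. A 3' library reads transcript ends, without molecular identifiers.

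Counts of the 4 libraries of a mouse were summed. Genotypes were compared with edgeR 4.0.16 (R 4.3.3): filterByExpr, TMM, quasi-likelihood test, Benjamini-Hochberg adjustment over all genes tested. The study's methods name DESeq2, used here as an alternative (1.42.0), beside limma 3.58.1. Intervals are 95%. Sets were also fitted singly. For 2 ng against 1 ng and set A against set B, genotype was a term, and in a further fit the mouse, since both libraries come from its RNA. Permutation tests used log2(CPM + 1). The scripts were tested on simulated data. No near-identical copy was found by minimap2 2.31-r1302 over the last 300 bases of each gene (at least 100 bases at 97% identity).

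Named genes are all 10, the called genes of each list (up to 6), the other annexins and galectins with a count, and the 3 genes nearest to Lgals9 and Anxa3. Other genes are named only beside these and were chosen after their values were seen. The lists cover annexin partners, formyl peptide receptors, galectin ligands, phosphatidylserine binding, and 11 cell type marker sets.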

Additional observations from a re-analysis of the deposited data

How the results depend on the processing

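With 3 mice per genotype and 10 to 98 counts of Lgals3 per mouse, only differences well beyond the spread can pass the test. Lgals9 kept its direction and its call in the summed comparison under all 17 alternatives, with log2 fold changes of 0.96 to 1.46, and with adjusted p of 9.24e-05 to 0.00242 (edgeR) when a mouse was left out. Same-numbered WT and GFAP-IL6 mice did not deviate together over all genes (r = -0.0495, -0.037 and -0.061, against a mean of 0.0256 for other pairs). With deviations taken within 3 mice per genotype, these values cannot show whether same-numbered mice were handled together. With the mouse numbers as a replicate block Lgals9 was at 1.12 (edgeR adjusted p = 0.000931) in the summed comparison. In 1 ng B it was at 0.85 (edgeR adjusted p = 0.125), so that 0 of the 10 genes were called there in place of 1. Between 2 ng and 1 ng, and between the sets, the block is the mouse itself, and it called 2 of the 10 genes in place of 1 in each contrast. Of all genes it called 4462 of 13389 and 3169 of 13581, so 2 of 10 is no more than the background.

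In the summed comparison 1 of the 10 genes was called, 3 with limma-voom over all 24 libraries, 3 with no filter on low counts, and 1 to 2 when a mouse was left out (2, with Anxa3 added, without WT 2). The limma-voom fit takes libraries, not mice, as units and called 537 of 12146 genes, and the fit with no filter called 462 of 20629. The number of DEGs among them was 0 with set B libraries only, 0 at an adjusted p under 0.1 with a log2 fold change above 1.5, and 0 to 1 with a mouse left out (0 without GFAP-IL6 3). Within the sets, leaving out a mouse gave 0 to 1 called genes in 1 ng B, where leaving out any mouse but GFAP-IL6 1 ended the call, 0 to 1 in 2 ng A (lost without GFAP-IL6 3) and 0 to 1 in 2 ng B (lost without GFAP-IL6 3 or WT 2). Between 2 ng and 1 ng leaving out a mouse gave 0 to 1 (lost without GFAP-IL6 1 or GFAP-IL6 2). Between the sets it gave 0 to 1 (lost without GFAP-IL6 2, WT 1 or WT 2), and DESeq2 gave 2. The cause was not tested. The median log2 fold change of the 10 genes in the summed comparison, 0.27, was 0.18 with the replicate block and 0.01 to 0.41 with a mouse left out (lowest without GFAP-IL6 3).

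In the summed comparison the direction turned under some alternatives for Anxa1, Anxa4, Anxa5, Lgals1 and Lgals3. With a mouse left out the log2 fold change ran from -0.02 to 0.5 for Anxa1, -0.01 to 0.37 for Anxa4 and -0.19 to 0.68 for Lgals3, each below 0 without GFAP-IL6 3 (Lgals3 also without WT 1). For Anxa5 it ran from -0.03 to 0.07 (below 0 without WT 3 or GFAP-IL6 1), with -0.01 for 2 ng libraries only and for limma-voom. For Lgals1 it ran from -0.05 to 0.09 (below 0 without WT 1, WT 3 or GFAP-IL6 3), with -0.02 for set A libraries only, -0.01 for counts thinned to the smallest total and -0.00 for limma-voom. Of all genes, 263 were called in the summed comparison, 462 with no filter, 537 with limma-voom and 146 to 321 with a mouse left out. The mouse block raised the number from 1714 to 4462 between 2 ng and 1 ng and from 1015 to 3169 between the sets.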
